A study of Arabidopsis thaliana with 6 samples.

Results

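The chloroplast-encoded genes of Arabidopsis thaliana were taken as every row of the deposited table per gene whose AGI code, the locus code of this plant, begins with ATCG. There were 130 such rows of 28387, all of them were tested, and no filter on dim rows was applied. Leaves of atpip1;2-1, a T-DNA line, were compared with leaves of the wild type N-60000 on 3 Affymetrix arrays each, at 3 weeks of age and in greenhouse plants under a 12-h photoperiod. Each array held total RNA of 5 plants, 15 plants for each line. The insertion lies in a gene for an aquaporin of the plasma membrane, PIP1;2, whose log2 value was 5.16, 5.51 and 5.18 on the mutant arrays and 8.73, 9.14 and 8.74 on the wild type arrays. The mutant is a single insertion line, so its effect cannot be told apart from anything else that this line carries. The labelling kits were of the whole-transcript kind, which prime along the RNA and do not depend on the poly(A) tails that most chloroplast transcripts lack.

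The chloroplast genome is a remnant of a cyanobacterial genome, with a large and a small single-copy region separated by a pair of inverted repeats. It codes for core subunits of the photosystems, the cytochrome b6f complex, the ATP synthase and the NDH complex, for the large subunit of Rubisco, and for parts of the machinery that expresses them: ribosomal proteins, an RNA polymerase of the bacterial type, tRNAs and rRNAs. Most of its genes are transcribed together with their neighbours by that polymerase, which needs nuclear-encoded sigma factors, or by a nuclear-encoded polymerase of the phage type, and the long transcripts are then cut and trimmed by nuclear-encoded proteins.

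The 130 rows held 112 different sets of values, because 18 pairs of rows, all from the inverted repeats, were identical on every array. Counts below are over the 112 distinct rows unless the 130 are named. The files do not pair ATCG codes with gene names. Each code took its candidate name from the community's list of chloroplast loci. The name was kept where the 6 values matched those of a probe set that the platform annotation gives that name. This held for 81 of the 130 rows. In 74 of them the values were equal within a root mean square of 0.05, and in 7 (rps16, atpF, rpoC1, ycf3, clpP, psbD and atpE) only the profile over the arrays was alike, with a correlation above 0.9. The probe set of that name was not always the nearest: for rps16 it lay at 0.40 and the nearest at 0.13. For rpl2 the values were equal within the limit, but the profiles correlated by only 0.03. Along the 66 named single-copy rows, all 65 steps in code order ran in the gene order of the reference annotation. This is the order of the listed names, so it checks the list and does not bear on the match of values. In 4 named rows (psbD, atpE, rps3 and ATCG01000) the matching probe set was shared by 2 genes. The 49 rows without a name are given by code alone, 45 of them in the tRNA and rRNA groups. The group of every row came from the same list, not from the files.

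The chloroplast rows were among the brightest on every array. They made up between 72 and 79 of the 100 highest values of each array, and 128 or 129 of the 130 lay above the array's upper quartile. A value is the hybridisation signal of a row's own probes, so it orders rows by brightness on the array and not by amount of transcript. The spread between arrays of a line was small, with a median pooled SD of 0.0789 over the chloroplast rows against 0.234 over all rows. The fitted standard errors were larger than that spread alone would give, with a median of 0.152 for a chloroplast row, because limma draws each row's spread towards that of all rows. All 4 leaf markers (RBCS1A, RCA, LHCB2.1 and LHCB1.2) lay above the upper quartile on every array, with values from 8.76 to 10.94. All 4 leaf markers also had the higher mean in the mutant, with a median difference of 0.21, and log2 of their summed signal was 11.95 to 12.04 in the wild type and 12.31 to 12.33 in the mutant. LHCB1.2 differed most, by 0.86 (SE 0.20, adjusted p = 0.144), and none of the 4 was called. None of the 3 root markers (1.76 to 3.24) or the 3 flower markers (1.54 to 2.80) lay above the array median on any array. The summed root signal overlapped between the lines (3.82 to 4.29 and 3.88 to 4.32), while the summed flower signal was 3.77 to 4.16 in the wild type and 3.55 to 3.66 in the mutant, with all 3 means lower and none called. The part of these marker differences in the results below was not tested. In RNA of whole leaf material, changes in the share of a cell type, in chloroplasts per cell and in RNA per chloroplast cannot be told apart.

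One array stood apart in these rows. Mutant replicate 3 gave the highest of the 6 values in 66 of the 112 distinct rows, and its median difference from the other mutant arrays was 0.11. The median row lay above its wild type mean by 0.11 on mutant replicate 1, by 0.12 on replicate 2 and by 0.26 on replicate 3. The 140 mitochondrion-encoded rows had the same array highest in 92 rows, with a median of 0.24 above the other mutant arrays, while over the nuclear rows that median was -0.003. The plot of each array against the wild type mean shows the same shift. Results that move without mutant replicate 3 are therefore also given without it.

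**Figure D1:**
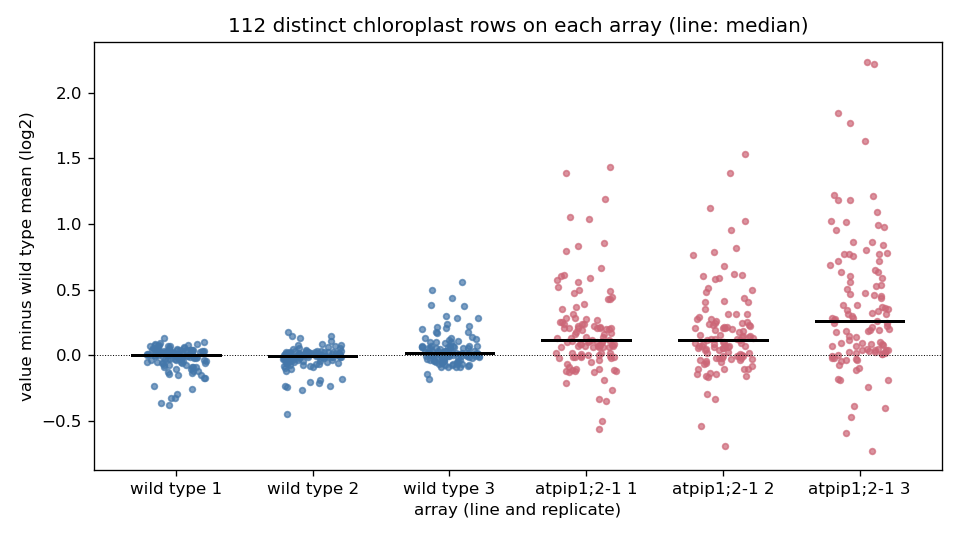
Each point is 1 of the 112 distinct chloroplast rows on 1 of the 6 arrays, plotted as its log2 value minus the wild type mean of that row, and the line is the median. The medians of mutant replicates 1 and 2 lie at 0.11 and 0.12 and that of mutant replicate 3 at 0.26, while those of the wild type arrays lie between -0.004 and 0.014.

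Of the 130 chloroplast rows, 4 passed an adjusted p of 0.05 in limma, all of them higher in the mutant. Over all rows of the table the background was 0.342% called, 0.187% higher and 0.155% lower. The 4 rows were psbM and psbN of photosystem II, rpl32 of the ribosome, and ATCG00110, a row of the tRNA group. No chloroplast row was called lower, although 3 of the 130 were lower at an unadjusted p under 0.05 (background 6.32%). At that unadjusted threshold 29 of the 130 rows were counted in either direction (background 12.2%), of which 26 were higher (background 5.92%). At an adjusted p of 0.10 there were 8 of 130 (background 0.673%). With a variance trend and robust fitting, limma called 16 of 130 (background 1.32%), 13 higher (background 0.761%) and 3 lower, and these included the 4. Identical rows count separately here: ATCG00930 and its copy ATCG01200 among the lower, ATCG00880 and its copy ATCG01260 among the higher. With any 1 array left out, between 0 and 1 of the 130 rows was called. ATCG00110 kept its call without mutant replicate 1 or 3, and psbN kept its call without wild type replicate 3. Over the whole table the calls dropped alike, from 97 rows to between 14 and 48, or 0.0493% to 0.169% of all rows.

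psbM codes for a small subunit of photosystem II at the interface between the monomers of the dimer. Its log2 value was 9.04, 9.29 and 9.16 on the wild type arrays and 10.35, 10.19 and 10.34 on the mutant arrays. The 3 mutant values lay close together and well above the highest wild type value. The difference was 1.13 (SE 0.16, adjusted p = 0.0219 in limma), which is 2.19-fold.

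psbN codes for a protein that in tobacco is needed to assemble the photosystem II reaction centre, and its gene lies on the strand opposite to its neighbours psbT and psbH. Its value was 9.81, 9.46 and 10.47 in wild type leaves against 11.35, 11.30 and 11.54 in mutant leaves. The wild type arrays spread over a full log2 unit, and even the highest of them lay below every mutant array. The difference was 1.48 (SE 0.25, adjusted p = 0.0467), or 2.80-fold. The call was lost with quantile normalization again (adjusted p = 0.0710) and in the probe-set table (0.0642). The sources used here do not say whether the probes of this row tell the strands apart.

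rpl32 codes for a protein of the large ribosomal subunit and lies in the small single-copy region. It gave 10.18, 10.34 and 10.47 in wild type leaves against 11.38, 11.28 and 11.31 in mutant leaves. The groups did not overlap, and the difference of 1.00 (SE 0.16, adjusted p = 0.0356), or 1.99-fold, hardly moved without mutant replicate 3 (1.00). Without that array the adjusted p was 0.134 for rpl32, 0.113 for psbM and 0.199 for psbN. The rpl32 call was also lost with quantile normalization again (adjusted p = 0.0559).

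ATCG00110, listed among the tRNA loci, was a dim row. Its wild type values of 4.02, 4.25 and 4.16 lay near the array medians of 3.78 to 3.84, and the mutant arrays gave 5.54, 5.68 and 6.36. The groups were far apart, with mutant replicate 3 the highest. The difference was 1.72 (SE 0.22, adjusted p = 0.0190), or 3.28-fold, and 1.46 without mutant replicate 3 (adjusted p = 0.0492). With 3 arrays against 3 an exact permutation test of any 1 row cannot give a two-sided p below 0.1, so it cannot separate these rows from others without overlap.

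**Figure D2:**
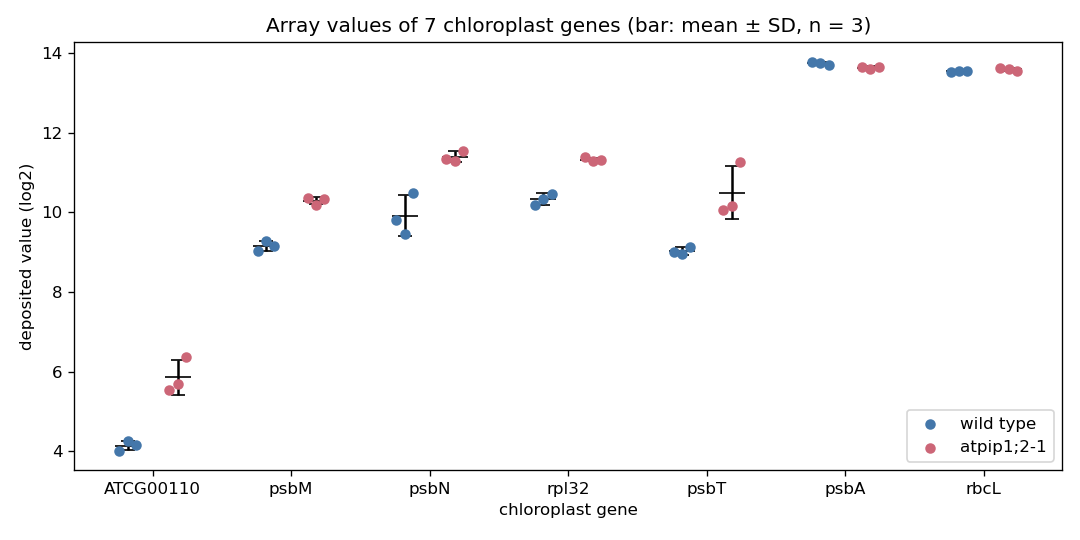
Deposited log2 values of 7 chloroplast rows on the 3 wild type and 3 atpip1;2-1 arrays, with the mean and SD of each line (n = 3). The lines do not overlap in ATCG00110, psbM, psbN, rpl32 and psbT, whereas psbA and rbcL differ by -0.11 and 0.05.

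Smaller differences of the same direction ran through most of the chloroplast rows. The mutant mean was the higher one in 98 of the 130 rows (background 48.4%) and in 89 of the 112 distinct rows. The median difference was 0.15 over the 130 rows and 0.17 over the distinct ones, or 1.12-fold, against -0.01 over all rows of the table. The 3 mutant and 3 wild type arrays did not overlap in 75 of the 130 rows (background 18.5%), 63 of them higher (background 9.3%) and 12 lower (background 9.24%) in the mutant. Bright nuclear rows also separated more often than the background. Among the 186 nuclear rows with a mean value of 10 or more, 45.2% did not overlap, but there 43 were higher and 41 lower and the median difference was 0.03. The mitochondrion-encoded rows had a median of 0.37, with 126 of 140 higher.

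These counts held in part without mutant replicate 3. The mutant mean was then higher in 91 of the 130 rows (background 48.5%), and the median was 0.10. Between 2 mutant and 3 wild type arrays, 87 of the 130 rows did not overlap (background 28.5%), 68 of them higher (background 14.2%). The size of the overall shift also moved with the scaling between arrays. When quantile normalization was applied again, 74 of the 112 distinct rows were higher in place of 89 (background 49.9%), and the median over the 130 rows was 0.05. When the arrays were set to equal medians over nuclear genes, 95 of 112 were higher (background 53.8%).

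The photosystem II group held the largest differences among the proteins. Of its 14 distinct rows 13 had the higher mean in the mutant, and 2 were called (psbM and psbN, background 0.342%). The arrays did not overlap in 12 (background 18.5%), 11 of these higher (background 9.3%). The median difference was 0.19, and 0.08 when quantile normalization was applied again. psbT, chosen here after its values were seen, codes for another small subunit at the dimer interface and gave 9.01, 8.95 and 9.13 in wild type leaves against 10.07, 10.15 and 11.27 in mutant leaves. Its difference of 1.46 (SE 0.29) had an adjusted p of 0.0939, and mutant replicate 3 alone stood 1.16 above the other mutant arrays. Without that array the difference was 1.08. psbJ, also chosen after its values were seen, followed with 0.52 (SE 0.16, adjusted p = 0.239).

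The lowest row of the group was psbA. This gene, for the D1 protein, gave 13.78, 13.74 and 13.71 in wild type leaves against 13.65, 13.60 and 13.65 in mutant leaves. It was the only protein row in which the arrays did not overlap and the mutant was lower, by a difference of -0.11 (SE 0.15, adjusted p = 0.820). psbB, for the antenna protein CP47, had a difference of 0.05, and psbD, for the reaction centre protein D2, 0.17, near the group median, both chosen after their values were seen. rbcL, for the large subunit of Rubisco, gave 13.52, 13.56 and 13.55 against 13.62, 13.60 and 13.55, with overlapping arrays and a difference of 0.05 (SE 0.15).

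In photosystem I the highest row was again that of a small subunit. Over its 7 rows, which include the assembly factors ycf3 and ycf4, the median was 0.18, or 0.07 with quantile normalization again. No row was called, and 1 had an unadjusted p under 0.05 (background 12.2%). psaJ, for a small subunit, gave 11.79, 12.32 and 12.41 in wild type leaves against 12.78, 12.77 and 12.64 in mutant leaves. All mutant values lay above the wild type values, of which replicate 1 was low, and the difference was 0.55 (SE 0.19, adjusted p = 0.300). The reaction centre genes psaA and psaB differed by 0.03 and -0.03, and psaB came out at 0.007 with equal nuclear medians.

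The cytochrome b6f complex, which links the photosystems, and the ATP synthase varied little. The 6 cytochrome b6f rows ranged from -0.004 in petB, the cytochrome b6 gene, to 0.24 in petL, for a small subunit, with a median of 0.11. The 5 ATP synthase rows ranged from 0.01 in atpH, the ring subunit, to 0.14 in atpI, with a median of 0.08. None of these 11 rows was called, and none had an unadjusted p under 0.05. With quantile normalization applied again the medians were 0.02 and 0.00.

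The NDH complex carries electrons around photosystem I, and its rows all lay on the same side of the wild type. All 11 distinct rows were higher in the mutant without overlap between the lines (background 9.3%). The differences ran from 0.11 in ndhD to 0.62 in ndhG, with a median of 0.24. None was called, and 2 had an unadjusted p under 0.05 (background 12.2%). ndhG, a membrane subunit, gave 11.58, 11.67 and 11.72 in wild type leaves against 12.13, 12.17 and 12.52 in mutant leaves. The difference was 0.62 (SE 0.17, adjusted p = 0.197), and 0.49 without mutant replicate 3. ndhF, another membrane subunit chosen after its values were seen, differed by 0.49 (SE 0.19) and by 0.32 without that array. In all 11 rows the highest of the 6 values came from mutant replicate 3, and the group median without it was 0.19.

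**Figure D3:**
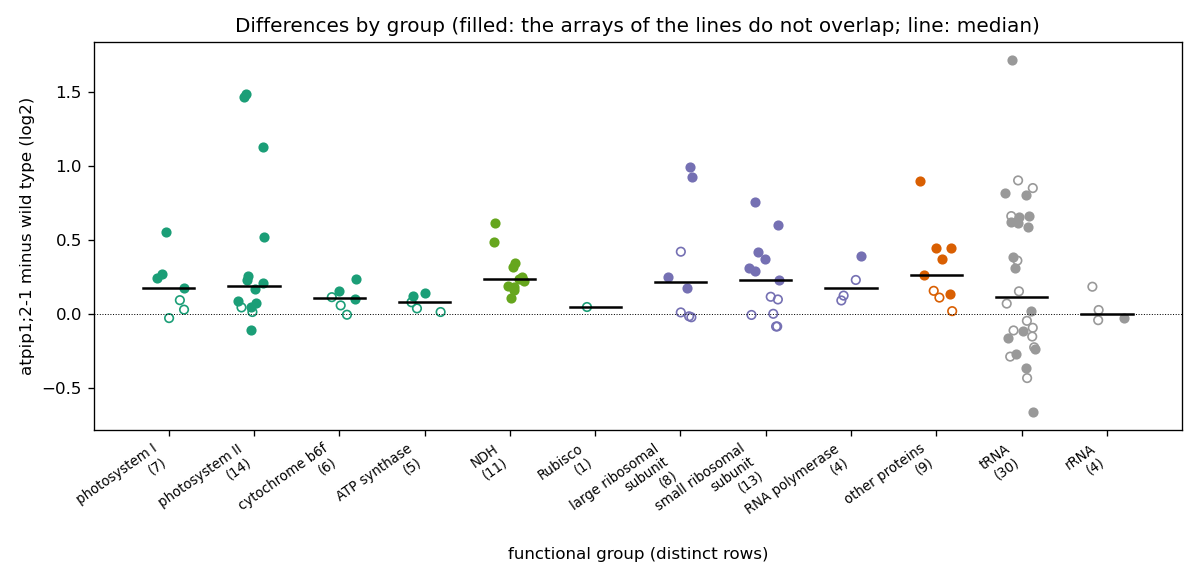
Difference between the lines (mutant minus wild type, log2) for each of the 112 distinct chloroplast rows, by functional group with the number of rows, where filled points are rows in which the 2 lines share no range of values and the line is the group median. All 11 NDH points are filled and above 0, while the 30 tRNA points run from -0.66 to 1.72.

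The ribosomal protein genes spread widely. Of 8 large-subunit rows 6 had the higher mean in the mutant, and 1 was called (rpl32, background 0.342%). The median was 0.21, or 0.12 with quantile normalization again. rpl33, chosen after its values were seen, was next with 0.93 (SE 0.19, adjusted p = 0.0967). It was followed in the same transcription unit by rps18, also chosen so, with 0.60 (SE 0.19, adjusted p = 0.265). At the low end rpl2 differed by -0.02, or by 0.01 with equal nuclear medians.

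Of 13 small-subunit rows 10 had the higher mean, and the median was 0.23. None was called, while 2 had an unadjusted p under 0.05 (background 12.2%). rps16 gave 8.93, 8.78 and 8.94 in wild type leaves against 9.68, 9.57 and 9.69 in mutant leaves. Its arrays did not overlap and lay close together within each line, and the difference of 0.76 (SE 0.15) had an adjusted p of 0.0935. The name of this row rests on the profile alone, and in the probe-set table rps16 differed by 0.55 (adjusted p = 0.223 in limma). The lowest row of the group was ATCG00065, named rps12, with -0.08 (SE 0.15) and overlapping arrays. The median of the small-subunit group was 0.11 without mutant replicate 3 and 0.04 with quantile normalization applied again.

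The 4 genes for the core of the plastid-encoded RNA polymerase moved with 1 array. rpoA, for the alpha subunit, gave 11.68, 11.68 and 11.66 in wild type leaves against 11.91, 11.88 and 12.39 in mutant leaves, a difference of 0.39 (SE 0.18, adjusted p = 0.428). rpoB, for the beta subunit, gave 10.90, 10.89 and 11.07 against 11.05, 11.02 and 11.48, a difference of 0.23. In rpoA the lines did not overlap, but in rpoB they did. rpoC1 and rpoC2, for the remaining large subunits, differed by 0.09 and 0.12 with overlapping arrays. Mutant replicate 3 lay between 0.43 and 0.57 above the other mutant arrays in these 4 genes. Without it the differences were 0.22 for rpoA, 0.08 for rpoB, -0.05 for rpoC1 and -0.06 for rpoC2, and the group median, 0.18 on all arrays and 0.08 with quantile normalization again, was 0.01. In rpoA the other mutant arrays still lay above every wild type array.

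The 9 remaining protein rows all had the higher mean in mutant leaves. Their median difference was 0.26, or 0.09 with quantile normalization again. None was called, and 3 of the 9 had an unadjusted p under 0.05 (background 12.2%). The highest was ATCG01000, the truncated copy of ycf1 at the edge of an inverted repeat, whose name was checked on a probe set shared with a nuclear gene. It gave 10.69, 10.44 and 10.73 in wild type leaves against 11.47, 11.43 and 11.63 in mutant leaves, without overlap. The difference was 0.90 (SE 0.16, adjusted p = 0.0632). The full-length ycf1, ATCG01130, chosen after its values were seen, differed by 0.45 (SE 0.18), and by 0.28 without mutant replicate 3. matK, for an intron maturase, differed by 0.02, and by -0.02 without that array. All 9 rows were highest on mutant replicate 3.

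The tRNA group was the one group with many rows in both directions. Of its 30 distinct rows 17 had the higher and 13 the lower mean in the mutant. The arrays did not overlap in 17 rows (background 18.5%), 11 higher (background 9.3%) and 6 lower (background 9.24%). At an unadjusted p under 0.05 there were 13 rows (background 12.2%), but only ATCG00110 was called (background 0.342%). The lowest was ATCG00200, with 12.84, 12.70 and 12.68 in wild type leaves against 12.18, 12.05 and 12.01 in mutant leaves. Its lines were separated by a wide gap and had little spread, and the difference was -0.66 (SE 0.15, adjusted p = 0.136). The group median of 0.11 was 0.01 without mutant replicate 3 and 0.04 with quantile normalization again. How well small RNAs are recovered by the extraction and labelling used was not tested.

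The 4 rRNA rows had wild type means from 12.63 to 14.04 and differed little, with a median of -0.001. The lowest, ATCG00950, differed by -0.04, with 13.98, 14.00 and 14.01 in wild type leaves against 13.99, 13.96 and 13.92 in mutant leaves. In ATCG00920, chosen after its values were seen, the mutant was lower without overlap, by a difference of -0.03 (SE 0.15). The highest, ATCG00970, differed by 0.18 (SE 0.16) with overlapping arrays. None was called and none had an unadjusted p under 0.05.

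Across the chloroplast rows the difference between the lines went with brightness. The 15 distinct rows with a mean value under 10 had a median difference of 0.66, and the 10 rows between 10 and 11 had 0.54. The medians were 0.23 in the 23 rows between 11 and 12, 0.15 in the 38 rows between 12 and 13, and 0.04 in the 26 rows at 13 or more. Without mutant replicate 3 the medians were 0.50, 0.30, 0.11, 0.11 and 0.04 in the same order, and the classes from 11 to 12 and from 12 to 13 then had the same median. In the brightest class no difference exceeded 0.26 in size. Across the 78 distinct protein rows Pearson's r between mean value and difference was -0.75 and Spearman's rho -0.73, and across all 112 rows they were -0.55 and -0.51. These are correlations across genes measured on the same 6 arrays, given as a description, and the rows are not independent replicates. The 140 mitochondrial rows had medians of 0.37 under a value of 10, 0.58 from 10 to 11, 0.33 from 11 to 12 and 0.18 from 12 to 13. Nuclear rows had medians between -0.01 and 0.08 in all 5 classes. The highest values on the arrays were 14.10 to 14.28, and whether the top of the scale bears on the small differences there was not tested.

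**Figure D4:**
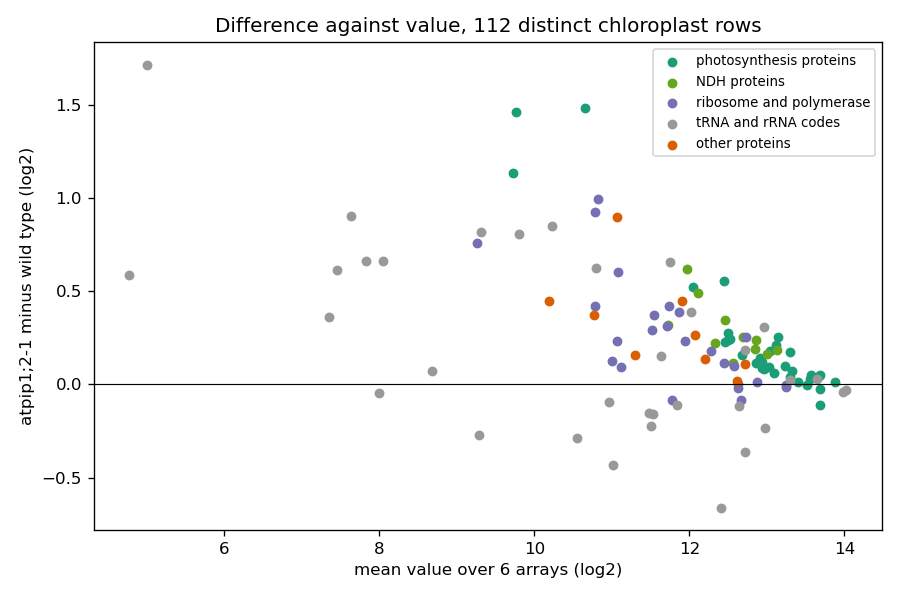
Difference between the lines (mutant minus wild type, log2) against the mean log2 value over the 6 arrays for the 112 distinct chloroplast rows, coloured by kind of gene. The 26 rows with a mean of 13 or more have a median difference of 0.04 and the 15 rows under 10 have 0.66, with lower values among the tRNA and rRNA codes.

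Position along the genome was followed through the code order. The rows of the inverted repeats had differences around 0, with 9 of 18 distinct rows higher and a median of -0.01, whereas in the 94 rows that occur alone the median was 0.22. This contrast was smaller among proteins, where the median was 0.12 over 7 inverted repeat rows, 0.17 over 58 rows of the large single-copy region and 0.32 over 11 rows of the small single-copy region. The 2 ycf1 rows, at the junctions, were kept apart from these regions and had a median of 0.67. In the small single-copy region 10 of 11 protein rows had the higher mean (background 48.4%), and 9 did not overlap, all of these higher (background 9.3%). That region holds rpl32 and most of the NDH genes, and the effect of position cannot be told apart from that of the genes it holds. Neighbouring rows resembled each other little: over 111 pairs of neighbours in code order r was 0.15 and rho 0.18, again across genes of the same arrays.

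The widest gap within a transcription unit was in psbB-psbT-psbH-petB-petD, whose genes are transcribed together and then cut apart. psbB differed by 0.05, psbT by 1.46, psbH by 0.21, petB by -0.004 and petD by 0.06. The high row psbT lies next to psbN (1.48), which is read from the opposite strand. Another abrupt step ran from ATCG00200 (-0.66) through petN (0.11) to psbM (1.13), in consecutive codes. By contrast psaA, psaB and rps14, which form 1 unit, stayed within -0.03 and 0.03, and the ndhC-ndhK-ndhJ unit within 0.17 and 0.24. The ndhH-to-ndhD unit ran from 0.09 in psaC to 0.62 in ndhG. The 7 measured rows of the unit from rpl22 to rpoA had a median of 0.37, from -0.01 in rpl14 to 0.42 in rps3, and a median of 0.20 without mutant replicate 3. Genes in this paragraph that the naming rule did not take were chosen after their values were seen.

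**Figure D5:**
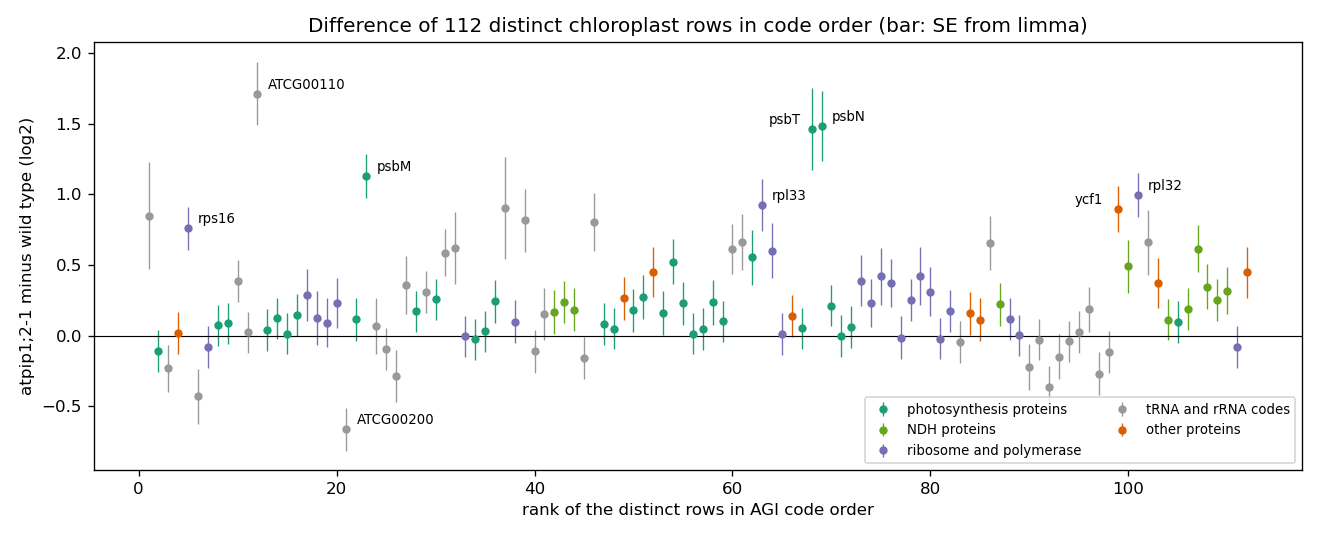
Difference between the lines (mutant minus wild type, log2) for the 112 distinct chloroplast rows in AGI code order, with the standard error from limma as a bar. High rows such as psbM (1.13), psbT (1.46), psbN (1.48) and rpl32 (1.00) stand beside rows near 0, and ATCG00200 (-0.66) is the lowest.

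The nuclear genes that serve chloroplast transcription were measured in the same leaves. Of 20 genes for sigma factors, phage-type polymerases and proteins associated with the plastid-encoded polymerase, 15 had the lower and 5 the higher mean in the mutant, with a median difference of -0.34. None was called in limma, 6 had an unadjusted p under 0.05 (background 12.2%), and 9 did not overlap between the lines (background 18.5%). PTAC10 (PDE312 in the reference table), a protein of the transcriptionally active chromosome, gave 6.30, 6.37 and 6.24 in wild type leaves against 5.53, 5.55 and 5.69 in mutant leaves. All mutant values lay clearly below the wild type, with a difference of -0.72 (SE 0.15, adjusted p = 0.108). FSD3, an iron superoxide dismutase associated with the polymerase, gave 7.45, 7.36 and 7.16 against 6.64, 6.93 and 6.14, a difference of -0.75 (SE 0.22, adjusted p = 0.219). The phage-type polymerase genes RPOTP and RPOTMP, chosen after their values were seen, differed by -0.25 and 0.08.

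The list of 12 nuclear genes for chloroplast RNA processing was evenly split by the direction of the means. There were 6 with the higher and 6 with the lower mean in the mutant, and the median was 0.002. None was called, and 3 of the 12 had an unadjusted p under 0.05 (background 12.2%). These were PNP, CP29A and RNE, all lower in the mutant (background 6.32%). The lines did not overlap in 3 (background 18.5%), PNP, CP29A and HCF152, also all lower (background 9.24%). RNE and HCF152 were chosen after their values were seen. RNE had the largest difference, -1.88 (SE 0.80, adjusted p = 0.384 in limma), with overlapping arrays that spread widely in both lines. PNP (RIF10 in the reference table), the polynucleotide phosphorylase that trims the ends of chloroplast transcripts, gave 6.54, 6.70 and 6.57 in wild type leaves against 5.95, 5.85 and 6.23 in mutant leaves. The lines did not overlap, and the difference was -0.59 (SE 0.17, adjusted p = 0.212). CP29A, an RNA-binding protein of the chloroplast, gave 8.40, 8.52 and 7.89 against 7.87, 7.43 and 7.77. Its lines were separated only by the small gap between 7.89 and 7.87, with a difference of -0.58 (SE 0.21, adjusted p = 0.317).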

How the data were processed

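Per the labels, total leaf RNA was biotin-labelled and hybridised to 6 Affymetrix arrays. The deposited table per gene holds log2 values, 1 for each AGI code and array. The submitters' processing notes name RMA and Partek, without versions or roles. The genome build, the probe annotation and the grouping of probes by code are not stated in the labels or headers, and coordinates are therefore left out. A deposited table per probe set, taken as log2 from its range, served to check names and as an alternative.

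All 28387 rows were fitted in R 4.3.3 by limma 3.58.1, using lmFit and then eBayes without covariates. Tests were two-sided, p-values were adjusted by Benjamini-Hochberg over the whole table, the threshold was 0.05, and the script was tested on simulated data. Differences are mutant minus wild type. The arrays carry no detection calls, and their number limits the precision. No batch is given in the labels. Summaries and figures used Python 3.11.15 and matplotlib 3.10.9.

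The members and gene lists were chosen with earlier results of these data known. Named were the rows past the threshold, the highest and lowest moderated t of each group, psbA, rbcL, the 4 rpo genes and up to 2 genes of each nuclear list, which took 26 chloroplast rows. The list of loci held 3 further chloroplast codes, those of psbC, atpB and rpl22, that have no row in the table per gene. Other settings tried were quantile normalization again, equal medians over nuclear genes, the dimmest 25% left out, a variance trend with robust fitting, no moderation, array weights, a replicate block, leaving out each array, the probe-set table, an adjusted p of 0.10, 1 row for each identical pair, and no tRNA or rRNA rows.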

Additional observations from a re-analysis of the deposited data

How the results depend on the processing

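As reported, 4 chloroplast rows were called, all higher. The count was 2 with quantile normalization again (0.31% of all rows) and 2 in the probe-set table (0.236% of its rows). That table holds 78 members under 70 gene names, identical rows counted separately, and 73 of the 78 had the same direction. Rows got their names by matching these probe sets on the same arrays, so that agreement was largely fixed in advance. At an adjusted p of 0.10 the count was 8 (background 0.673%), and without moderation it was 0. Without moderation, limma's linear fit left 58 of 130 rows at an unadjusted p under 0.05 (10.8% of all rows) and called 0 in the whole table. With a variance trend and robust fitting the count was 16 (background 1.32%), 13 higher and 3 lower, identical rows counted separately, with 4 of 4 calls kept. Leaving out 1 array gave 0 to 1, also among higher rows, with 20 to 29 rows at an unadjusted p under 0.05. Over all rows 0.0493% to 0.169% were then called and 9.66% to 12.2% had such a p. ATCG00110 was the row called without mutant replicate 1 or 3, and psbN (0.0276) the row called without wild type replicate 3. With the replicate block the count was 1 (ATCG00110; 0.159% of all rows), and psbM (0.0706), psbN (0.0517) and rpl32 (0.0950) lost the call. The labels do not say that the numbers pair the arrays. The deviations of same-numbered arrays correlated by 0.0085, 0.0498 and 0.0745 over all genes, and by 0.303, 0.326 and 0.467 over chloroplast rows. In the chloroplast rows every array correlated best with its own number, a hint from the data, but mutant replicates 1 and 2 also correlated with wild type replicates 2 and 1 (0.269 and 0.247). The median over the 130 rows was 0.0454 with quantile normalization again and 0.0954 to 0.172 with 1 array left out. That normalization gives every array the same set of values, and chloroplast rows hold most of the highest ones. With it group medians were 0.0 for ATP synthase, 0.0190 for cytochrome b6f, 0.0871 for other proteins, 0.0689 for photosystem I, 0.0793 for photosystem II, 0.0169 for Rubisco, 0.115 for large and 0.0429 for small ribosomal proteins. Equal nuclear medians gave 0.225 for photosystem II (0.219 in the probe-set table), 0.0333 for rRNA, 0.0819 for Rubisco and 0.248 for large ribosomal proteins. Of the 20 genes in the nuclear polymerase list, 1 was called with trend and robust fitting (background 1.32%). Differences near 0 changed sign. matK was -0.0175 with quantile normalization again and -0.0159 to 0.0446 with 1 array left out. rpoC1 was -0.0297 and -0.0518 to 0.195 under the same changes, and rpoC2 -0.0648 to 0.239 with 1 array left out. atpH was -0.00138 with array weights and -0.0129 to 0.0321 with 1 array left out. petB was 0.0298 with equal medians, 0.0017 in the probe-set table and -0.0396 to 0.0292 with 1 array left out. psaB was 0.00718 and rpl2 0.0127 with equal medians, and rpl2 0.0101 in the probe-set table. The cause of these shifts was not tested. Among named genes 308 of the other comparisons kept direction and side of the threshold, 31 lost the call and 6 gained one.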
